A study of Rattus norvegicus with 8 samples.

Results

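The genes described here are 8 neurotrophic ligands and receptors, namely Bdnf, Ntf3, Gdnf, Ntrk2, Ntrk3, Ngfr, Cntf and Lif. They were taken by gene name from the 26334 gene names of a rat expression array, which carries 12 probes for them in 39 spots. They were measured in whole retinas of 8-week-old female Lister Hooded rats 2 weeks after surgery on the right optic nerve. In the ONC group (4 retinas) the nerve was crushed 3 mm behind the optic disc with forceps held for 10 s. The CTR group (4 retinas) had a sham operation with the forceps kept open. A crush injures the axons of the retinal ganglion cells (RGCs), whereas the RNA came from all cell types of the retina, so that fewer cells of a type and less RNA per cell cannot be told apart. The question put to these genes is whether their RNA differed between crushed and sham-operated retinas.

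Neurotrophins are secreted as proneurotrophins, which are cleaved to mature ligands. Bdnf codes for the ligand of TrkB (Ntrk2) and Ntf3 for the preferred ligand of TrkC (Ntrk3), both receptor tyrosine kinases, while Ngfr codes for a receptor that binds all neurotrophins at low affinity. Gdnf signals through Ret and its co-receptors, and Cntf and Lif signal through gp130 receptors, Jak kinases and Stat3. In the retina these factors are known to support the survival of RGCs after axon injury, and glia are a known source of several of them.

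Each array carried 2 retinas, one in each dye, and the 8 resulting channels are the units of every comparison. By the labels, array 1 held ONC1 in Cy3 and CTR1 in Cy5, and arrays 2 to 4 followed the same scheme, so that the dyes and the surgery cannot be told apart. The methods of the study describe another layout, in which an array holds retinas of 1 group only. Both sources give one and the same dye for CTR2, CTR4, ONC1 and ONC3. Every sign below follows the labels, and the sign of an array's difference would turn if its labels were exchanged.

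The RGC markers went against the labels. Of 13 listed markers, 9 passed the spot filter, the brightest on the array being Stmn2. Their median level, each gene taken relative to its own mean over the 8 channels, was -1.60, 1.18, -1.27 and -1.0 log2 units in CTR1 to CTR4, against 1.34, 1.32, 1.37 and -1.20 in ONC1 to ONC4. Thus 3 channels labelled ONC and CTR2 were high, and 3 channels labelled CTR and ONC4 were low, which is opposite to the direction the study describes for RGC genes. Summed over the 9 genes, the level was 9.71, 35.6, 11.0 and 14.3 times the channel median in CTR1 to CTR4, against 37.9, 39.5, 38.2 and 10.3 times in ONC1 to ONC4. Pou4f3, Isl2 and Nrn1 did not pass, and Pou4f1 has no probe under that name. Isl2 still read 15.4 times its local background in CTR2 against 2.72, 3.38 and 1.96 times in the other CTR channels. The list shares genes with those the study picked from these samples and is not independent evidence. The channels are therefore called by their labels, and the differences of the 7 genes that passed are given with and without CTR2 and ONC4. These channels were singled out by the RGC markers, so the values of the markers themselves without them are no test. Without them each remaining ONC channel is high in these markers and each remaining CTR channel low. For any gene the label and the RGC marker level cannot be told apart there.

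Levels are log2 intensities after background subtraction and loess normalisation, relative to the median of all spots kept in that channel. A level of 0 is the channel's median spot. The level of one probe cannot be set against that of another, because probes differ in affinity. A spot was kept where its foreground was at least 2 times the local background in all 8 channels and no outlier mark was set. This left 27371 of 42877 spots, 18599 probes and 16307 genes. Among the 8 genes 7 passed, with 11 of their 12 probes, and Gdnf did not.

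None of the 7 genes passed the test between labels. In limma, with p adjusted over all 16307 genes, 0 of 7 were called, where 81 genes (0.497%) were called in all, and the 7 adjusted p-values lay between 0.364 and 0.953. At an unadjusted p under 0.05 the count was also 0 of 7, against 3025 genes (18.6%). Of the 7 genes 4 differences were positive (higher under the ONC label) and 3 negative, with a median of 0.03 log2 units against -0.01 over all genes. With the array as a replicate block 1254 genes (7.69%) were called and again 0 of the 7, while 1 of them, Cntf, had an unadjusted p under 0.05 there, as had 5097 of the 16307 genes. The ranges of the CTR and ONC channels overlapped for each of the 7, whereas they did not overlap for 2069 genes (12.7%).

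**Figure D1:**
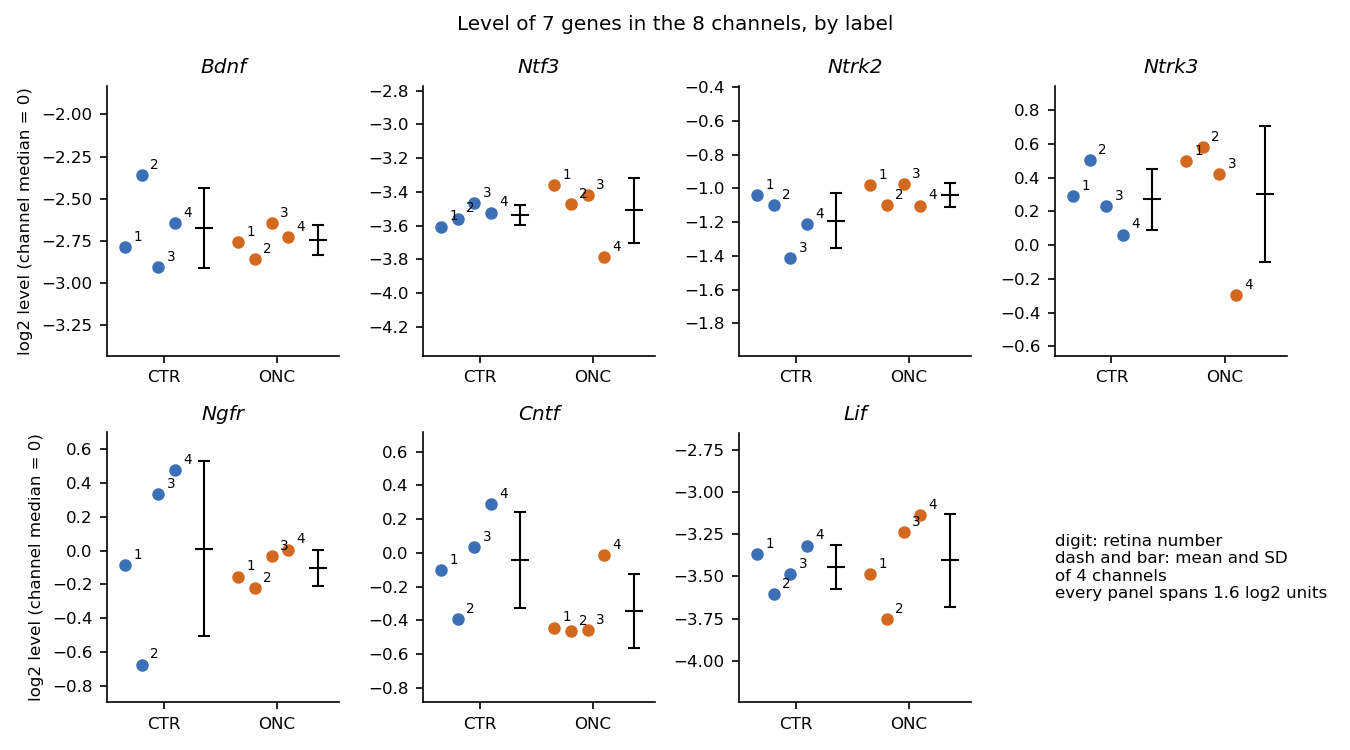
Level of each of the 7 genes that passed the spot filter in the 4 CTR and 4 ONC channels, as log2 intensity relative to the channel median. Digits are retina numbers, the dash and bar are the mean and SD of 4 channels, and every panel spans the same height. The ranges of the labels overlap in each panel, and Ngfr has the widest spread, from -0.68 in CTR2 to 0.48 in CTR4.

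The neurotrophin ligands are considered first. Bdnf, a well known survival factor for RGCs, read -2.79, -2.36, -2.90 and -2.64 in CTR1 to CTR4, against -2.76, -2.86, -2.64 and -2.73 in ONC1 to ONC4. CTR2 was the highest channel and CTR3 the lowest, and the 4 ONC channels lay between them. The means were -2.67 ± 0.24 (SD, n = 4) and -2.75 ± 0.09 (SD, n = 4). The difference was -0.07 log2 units (SE 0.12, 95% interval -0.35 to 0.20, limma adjusted p = 0.812, exact permutation p = 0.657), and the ONC channel was higher on 2 of 4 arrays. Without CTR2 and ONC4 it was 0.03, so that the sign for Bdnf turned. The probe (A_44_P437896, rn4 3_random:979381-979440, plus strand) was printed in 10 spots, of which 5 carried an outlier mark and 5 were used, and in ONC4 9 of the 10 were well above background. Over these 5 spots the SD within a channel was 0.15 at the median and 0.37 in CTR2, so the high value of CTR2 is also the least precise.

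Ntf3, which codes for neurotrophin-3, read -3.61, -3.56, -3.47 and -3.52 in CTR1 to CTR4, against -3.36, -3.47, -3.42 and -3.79 in ONC1 to ONC4. The 4 CTR channels were close together, 3 ONC channels were slightly above most of them, and ONC4 was the lowest of all. With means of -3.54 ± 0.06 and -3.51 ± 0.19 (SD, n = 4 each), the difference was 0.03 (SE 0.11, 95% interval -0.21 to 0.27, limma adjusted p = 0.918). It was 0.11 without CTR2 and ONC4. The ONC4 reading is a dim one, since its foreground of 77.5 was 1.21 times the median of the negative control spots and the spot was not marked as well above background there. In the other 7 channels it was well above background, at 1.78 to 2.99 times the negative controls. The probe is shown because its level is close to the limit of the array, and it lies in the part of the coding sequence for the pro-domain (A_44_P496447, rn4 chr4:162436573-162436632, minus strand).
Ntf3 probe: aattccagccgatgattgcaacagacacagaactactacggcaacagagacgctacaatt

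Gdnf, the ligand of the Ret receptor complex, was too dim for a level. Its probe (A_64_P004162, rn4 chr2:57423957-57424016, plus strand) covers the end of the coding sequence and is shown because its only spot was not well above background in any of the 8 channels.
Gdnf probe: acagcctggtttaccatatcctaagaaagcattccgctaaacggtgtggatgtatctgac

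The foreground of Gdnf was 78.9, 75.3, 76.9 and 78.0 in CTR1 to CTR4, against 83.6, 83.4, 73.7 and 68.5 in ONC1 to ONC4. This was 1.32 to 1.51 times the local background in the channels labelled CTR, against 2.36 to 3.07 times in those labelled ONC. The negative control spots, which are designed to match no transcript, behaved alike, with a median of 1.11 to 1.17 times background for the CTR label, against 2.40 to 2.55 times for the ONC label. Set against those 153 spots, Gdnf was at 1.07 to 1.27 times their median in all 8 channels. It lay above their 95th percentile in 7 of the 8 channels, all but ONC4. No fold is given for Gdnf, as its spot was not marked as well above background under either label. The same offset of the Cy3 channels means that the minimum of 2 times background acts mainly through the CTR channels, where 71.9% to 75.0% of spots reached it, against 98.2% to 99.9% in the ONC channels.

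**Figure D2:**
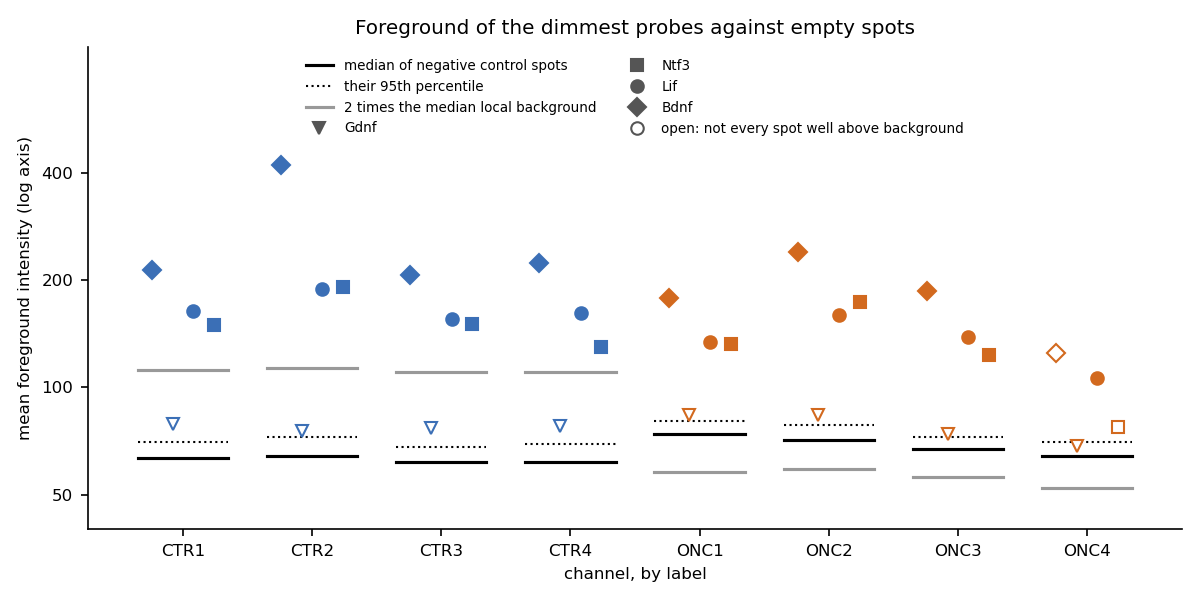
Mean foreground intensity (log axis) of the probes for Gdnf, Ntf3, Lif and Bdnf in each channel, with the median and 95th percentile of the negative control spots and 2 times the median local background. Open symbols mark probes with a spot not well above background in that channel. Gdnf stays below 2 times the background in each CTR channel, whereas negative control spots lie above that line in each ONC channel.

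Among the receptors, Ntrk2 was higher in the ONC channel on 4 of 4 arrays, although on array 2 by 8.13e-05 only. TrkB is made as a full-length kinase and as truncated forms, and the array has 4 probes for the gene. Their mean was -1.04, -1.10, -1.41 and -1.21 in CTR1 to CTR4, against -0.98, -1.10, -0.97 and -1.10 in ONC1 to ONC4. CTR3 was lowest, and CTR1 and CTR2 lay within the range of the ONC channels. The difference was 0.15 log2 units (SE 0.10, 95% interval -0.07 to 0.38, limma adjusted p = 0.458, exact permutation p = 0.143), 0.20 without CTR2 and ONC4, and 0.08 without CTR3. Of all genes 39.4% had the same sign on all arrays, and of the 7 genes 2 did, Ntrk2 and Cntf.

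The 4 Ntrk2 probes were also read one by one. Probe A_42_P538400 (NM_012731, rn4 chr17:11495183-11495242) read 2.07, 2.45, 2.19 and 2.30 in CTR1 to CTR4, against 2.78, 2.63, 2.77 and 2.55 in ONC1 to ONC4. Every ONC channel lay above every CTR channel, by 0.43 log2 units in the means (SE 0.11, 95% interval 0.20 to 0.67), with the smallest p that the exact permutation test can give (0.0286). It missed the threshold over all 18599 probes (limma adjusted p = 0.0807, and 0.0594 with the array as a replicate block), where 0.608% of probes were called. Of the 11 probes that passed it was the 1 whose labels did not overlap, against 13.2% of all probes. The other 3 probes differed by 0.07 (A_42_P631184, NM_001163168, rn4 chr17:11680049-11680108), 0.04 (A_43_P15837, M55293, rn4 chr17:11734704-11734763) and 0.06 (A_64_P058883, NM_012731, rn4 chr17:11496095-11496154), and in each of them the labels overlapped. Set against the mean of the other 3 in the same channel, A_42_P538400 was 0.38 higher in the ONC channels (exact permutation p = 0.0286). With 4 channels per label 1 such contrast alone cannot pass after adjustment over the 5 that were run, so this is no test of whether the probes differ. The gene's difference of 0.15 came mostly from 1 probe.

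Probe A_64_P058883 is shown because it is assigned to the same transcript as A_42_P538400, with 912 bases between their starts, yet its ONC and CTR channels overlapped. It covers coding sequence at the kinase end of full-length TrkB, on the minus strand.
Ntrk2 probe A_64_P058883: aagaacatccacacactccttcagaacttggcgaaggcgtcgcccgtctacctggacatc

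This probe read -0.85, -0.80, -1.05 and -0.72 in CTR1 to CTR4, against -0.67, -1.02, -0.71 and -0.79 in ONC1 to ONC4. The ONC channel was higher on 2 of 4 arrays only. Both probes were well above background in all 8 channels. A_43_P15837 was a dim probe, at 1.48 times the negative controls in ONC4.

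Ntrk3, the receptor kinase for neurotrophin-3, read 0.29, 0.50, 0.23 and 0.06 in CTR1 to CTR4, against 0.50, 0.58, 0.42 and -0.30 in ONC1 to ONC4. The highest 4 channels were ONC2, CTR2, ONC1 and ONC3, and ONC4 was the lowest. The difference was 0.03 (SE 0.19, 95% interval -0.41 to 0.46, limma adjusted p = 0.953), and 0.31 without CTR2 and ONC4 (limma adjusted p = 0.135). The 4 highest channels are those in which the RGC markers were high, and the part of RGC content in the level of Ntrk3 was not tested.

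Of the 2 Ntrk3 probes, A_64_P127858 (NM_019248, rn4 chr1:134081453-134081512, minus strand) had the wider spread. It is shown because 1 channel sets that spread, and it lies in the coding sequence.
Ntrk3 probe A_64_P127858: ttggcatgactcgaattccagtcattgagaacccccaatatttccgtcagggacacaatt

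It read -0.49, -0.37, -0.48 and -0.91 in CTR1 to CTR4, against -0.18, -0.08, -0.29 and -1.42 in ONC1 to ONC4, a difference of 0.07 (SE 0.28). ONC4 stood far below the other ONC channels, although its foreground was 3.53 times the negative controls and well above background. The other probe, A_64_P035162 (NM_001270656, rn4 chr1:133925530-133925589), read between 0.83 in ONC4 and 1.38 in CTR2 with a difference of -0.01 (SE 0.13). The contrast between both probes was -0.08 (exact permutation p = 0.743).

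Ngfr, the low-affinity receptor, varied most of the 7 genes over the channels, by 1.15 log2 units where the median gene varied by 0.57. It read -0.09, -0.68, 0.33 and 0.48 in CTR1 to CTR4, against -0.15, -0.22, -0.03 and 0.01 in ONC1 to ONC4. The spread lay within the CTR label, with CTR2 lowest and CTR4 highest of all 8 channels and the ONC channels between them. The means were 0.01 ± 0.52 and -0.10 ± 0.11 (SD, n = 4 each), and the difference was -0.11 (SE 0.23, 95% interval -0.62 to 0.40, limma adjusted p = 0.843). Without CTR2 and ONC4 it was -0.38. All 10 spots of the probe (A_44_P556989, rn4 chr10:84263082-84263141, minus strand) were used, with a median SD over spots of 0.24. The named genes with the most similar profile over the 8 channels, among 11223 compared, were Clic1, Apbb1ip and Gimap5, at a root mean square distance of 0.0919, 0.0926 and 0.0958 log2 units.

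Among the cytokines, Cntf had the difference farthest from 0 of the 7 genes in the main fit, but not under median scaling or with the brightest probe of each gene. It was lower in the channels labelled ONC, opposite to the direction the study gives for it. Cntf read -0.10, -0.39, 0.03 and 0.29 in CTR1 to CTR4, against -0.44, -0.46, -0.46 and -0.01 in ONC1 to ONC4. ONC1, ONC2, ONC3 and CTR2 were the lowest channels, and ONC4 lay within the range of the CTR channels. With means of -0.04 ± 0.28 and -0.34 ± 0.22 (SD, n = 4 each), the difference was -0.30 log2 units (SE 0.16, 95% interval -0.67 to 0.06, limma adjusted p = 0.364, exact permutation p = 0.171).

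Array by array the Cntf difference was -0.34, -0.07, -0.49 and -0.30, thus lower in the ONC channel on 4 of 4 arrays, as for 21.2% of all genes. With the array as a replicate block the limma adjusted p was 0.0765, and without CTR2 and ONC4 the difference was -0.53 (limma adjusted p = 0.0625), neither past the threshold. Without CTR4 alone it was -0.19 (limma adjusted p = 0.572). The 4 lowest channels of Cntf are those in which the RGC markers were high, the reverse of Ntrk3, and the part of RGC content was not tested. The probe (A_44_P323404, rn4 chr1:215842670-215842729, minus strand) was bright, with 9 of 10 spots used and a median SD over spots of 0.16.

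**Figure D3:**
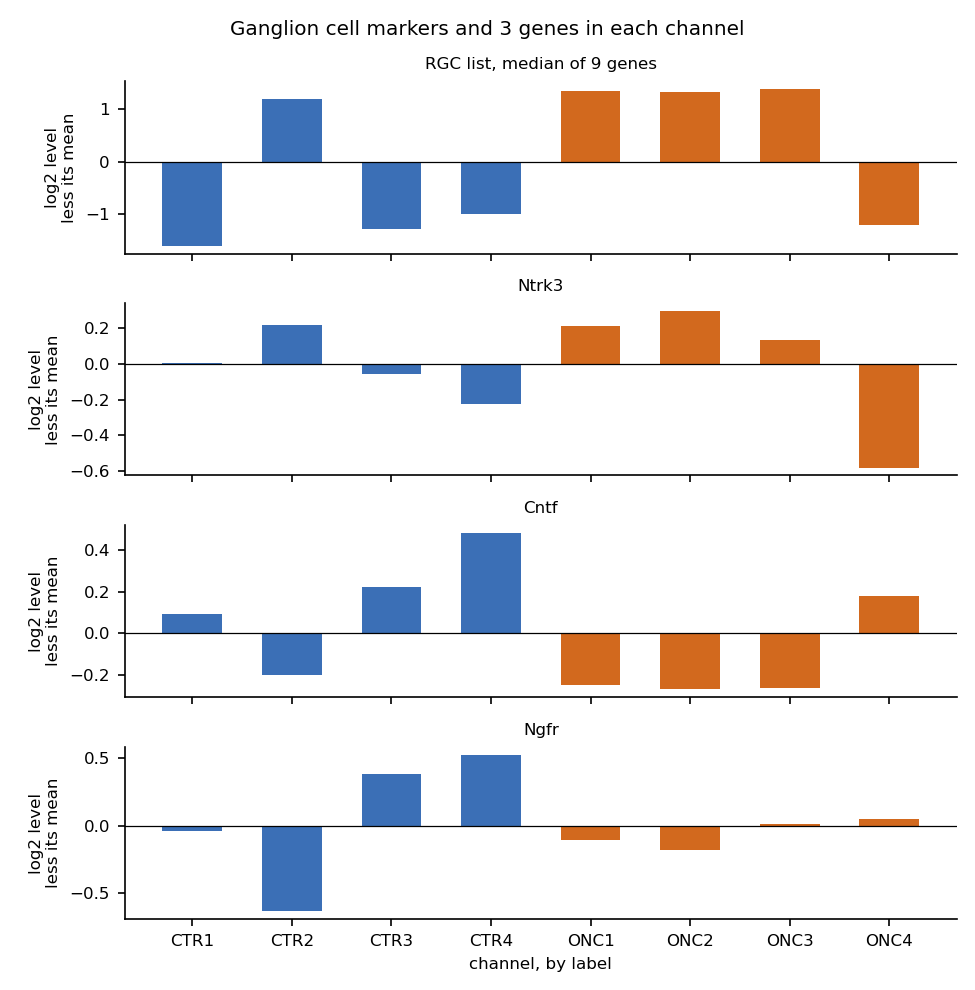
Median level of 9 RGC markers and level of Ntrk3, Cntf and Ngfr in each channel, as log2 units relative to the mean of the gene over the 8 channels. CTR channels are blue and ONC channels orange. The RGC markers are above 0 in CTR2 and ONC1 to ONC3, the same channels in which Ntrk3 is highest and Cntf lowest, while Ngfr ranges from CTR2 to CTR4.

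Lif, a cytokine of the same receptor family, read -3.37, -3.61, -3.49 and -3.32 in CTR1 to CTR4, against -3.49, -3.76, -3.24 and -3.14 in ONC1 to ONC4. Retina 2 gave the lowest value under both labels, and the ONC channel was higher on 2 of 4 arrays. The difference was 0.04 (SE 0.14, 95% interval -0.28 to 0.36, limma adjusted p = 0.915), and it turned to -0.10 without CTR2 and ONC4. The single Lif spot was well above background in 8 of 8 channels but dim, at 2.51 to 2.94 times the negative controls for CTR, against 1.66 to 2.24 times for ONC. Its probe, in the coding sequence (A_64_P115666, rn4 chr14:84890562-84890621, plus strand), is shown with those of the other dim ligands.
Lif probe: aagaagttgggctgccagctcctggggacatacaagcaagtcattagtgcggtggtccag

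The normalisation mattered most for these dim ligands. With each channel scaled to its median and no loess, 3194 genes (19.6%) were called, 2267 higher and 927 lower, in place of 38 higher and 43 lower. Of the 7 genes 3 were then called, all higher in the ONC channels. These were Ntf3 with 0.66 (limma adjusted p = 0.00915), Lif with 0.62 (limma adjusted p = 0.0261) and Ntrk2 with 0.38 (limma adjusted p = 0.0342). Bdnf turned to 0.29 without being called. The median log2 ratio of Cy5 over Cy3 before loess was 0.50, 0.32, 0.42 and 1.22 on arrays 1 to 4, and the part of the dyes in these calls cannot be told apart from condition. Cntf, Ngfr and Ntrk3 kept their signs under that scaling.

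**Figure D4:**
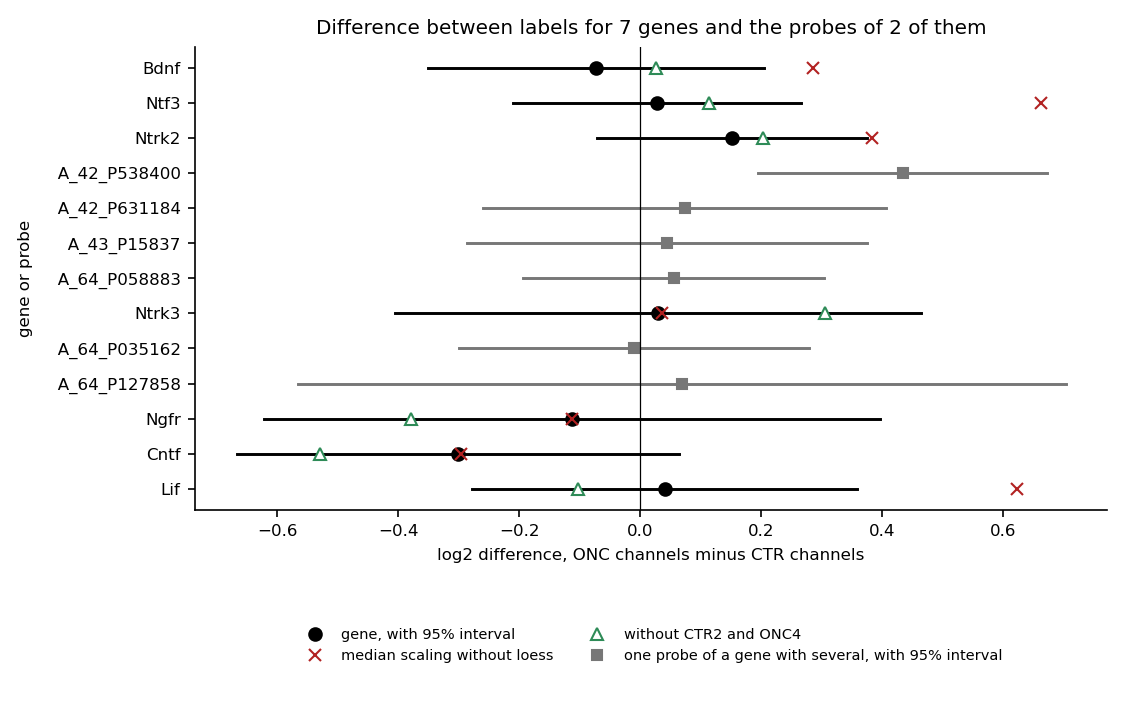
Log2 difference between the ONC and CTR channels for the 7 genes (black, with 95% interval) and for each probe of Ntrk2 and Ntrk3 (grey), with the value under median scaling without loess (cross) and without CTR2 and ONC4 (triangle). The interval includes 0 for each gene, and of the probes only A_42_P538400 has an interval above 0. Median scaling moves Ntf3 to 0.66 and Lif to 0.62.

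The genes of these pathways, those described above included, were counted in the same fit. The lists held 85 genes, of which 70 passed the spot filter, 28 of them higher under the ONC label and 42 lower, with a median of -0.05. In limma 0 of the 70 were called, and 14 (20.0%) had an unadjusted p under 0.05, against 18.6% of all genes. With the array as a replicate block 4 were called higher and 2 lower, together 8.57% of the 70 against 7.69% of all genes. These shares are close to the background and are no result about the lists. Likewise 28 of the 70 had the same sign on all arrays, a share of 40%. Under median scaling the balance turned, with 45 of the 70 higher, 25 lower and a median of 0.14 (0.07 over all genes), and 15 of the 70 (21.4%) were called, 12 higher and 3 lower, against 19.6% of all genes. With the array as a random effect 13 of the 70 were called, 8 higher and 5 lower, where 2482 of all 16307 genes were.

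Of the neurotrophin ligands 3 of 4 passed, 1 higher and 2 lower, with a median of -0.05 that turned to 0.29 under median scaling and to 0.03 without CTR2 and ONC4, and Ntf4 was too dim. All 11 neurotrophin receptors and co-receptors passed, 6 higher and 5 lower, with a median of 0.03 (0.20 without CTR2 and ONC4). Under median scaling the median was 0.06, with 8 higher, 3 lower and 4 called, where 19.6% of all genes were called. Sorcs3 and Nradd, which is related to Ngfr, were higher on 4 of 4 arrays, by 0.26 (SE 0.09) and 0.21 (SE 0.08), and Sort1, which codes for the proneurotrophin co-receptor sortilin, was lower on 4 of 4 with a difference of -0.11 (SE 0.07). None of these 3 passed the test with or without the replicate block, but Sorcs3 and Nradd were called with the array as a random effect (limma adjusted p = 0.0407 and 0.046) and under median scaling (0.0104 and 0.0168). With the brightest probe alone Sorcs3 was 0.06 higher (limma adjusted p = 0.874).

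Of the signal adaptors 13 of 15 passed, 4 higher and 9 lower, with a median of -0.03 (7 higher and 6 lower under median scaling), and Gab1 and Irs1 did not pass. Sh2b1, which codes for an adaptor of receptor kinases, read from -0.64 to -0.28 in the CTR channels, against -1.57 to -0.96 in the ONC channels. The labels did not overlap, and the difference was -0.74 (SE 0.14, limma adjusted p = 0.0575, and 0.0282 with the array as a replicate block). Rapgef1, an exchange factor for Rap1, was 0.34 higher (SE 0.08, limma adjusted p = 0.0883, 0.0449 with the replicate block and 0.0107 with the array as a random effect), but 0.14 higher with the processed signal (limma adjusted p = 0.328). Frs3 was 0.27 higher (SE 0.11) on 4 of 4 arrays and was called under median scaling only (0.84).

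For the GDNF family, 3 of 4 ligands passed, 2 higher and 1 lower, with a median of 0.01 that turned to -0.18 without CTR2 and ONC4. Under median scaling the median was 0.40, with 1 of 3 called, against 19.6% of all genes. Pspn, which codes for persephin, was 0.35 higher (SE 0.09, limma adjusted p = 0.0362 with the replicate block and 0.0871 without). Of 7 receptor genes 5 passed, 4 higher and 1 lower, with a median of 0.24 (0.41 under median scaling, 0.27 without CTR2 and ONC4), and Gfra3 and Gfra4 did not pass. Ret, the kinase of the GDNF receptor complex, read -0.81, -0.57, -0.96 and -1.06 in CTR1 to CTR4, against -0.44, -0.22, -0.42 and -0.86 in ONC1 to ONC4. It was higher in the ONC channel on 4 of 4 arrays, by 0.36 in the mean (SE 0.15, limma adjusted p = 0.0457 with the replicate block and 0.253 without), and by 0.58 without CTR2 and ONC4 (limma adjusted p = 0.0482). The 4 highest channels of Ret, as of Ntrk3, are those in which the RGC markers were high, and the part of RGC content was not tested. The call of Ret without CTR2 and ONC4 is no test of the label, since label and RGC marker level coincide there. Sdc3, a syndecan that binds GDNF, was 0.43 higher (SE 0.17) and was called with the array as a random effect (limma adjusted p = 0.042) but not with the replicate block or without it, and it was 0.26 higher when CTR4 was left out.

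For the CNTF and LIF family, 7 of 8 ligands passed, 3 higher and 4 lower, with a median of -0.11, and Il6 was too dim. Under median scaling 6 of the 7 were higher, with a median of 0.26, and only Cntf was lower, whereas without CTR2 and ONC4 1 was higher and 6 lower, with a median of -0.29. Il11 differed by -0.29 (SE 0.16, turned to 0.06 under median scaling) and Osm by 0.21 (SE 0.14), each with one sign on 4 of 4 arrays and neither called, and the difference of Osm was 0.81 under median scaling, where it was called, but 0.01 without CTR2 and ONC4. The 5 receptor genes that passed, of 6, were all lower, with a median of -0.09, but under median scaling 3 were higher and 2 lower, with a median of 0.17. Osmr did not pass. Cntfr, the specific receptor of Cntf, read from -3.16 to -2.92 in the CTR channels, against -3.23 to -3.18 in the ONC channels. Its labels did not overlap, by a difference of -0.21 (SE 0.08, limma adjusted p = 0.215, 0.103 with the replicate block and 0.0471 with the array as a random effect), but under median scaling it turned to 0.28. The Cntfr difference was also smaller with the processed signal. Cntfr and Osm had intensities near those of the dim Ntf3 and Lif probes.

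Downstream, 8 of 10 genes of the Jak and Stat chain passed, 2 higher and 6 lower, with a median of -0.12, and under median scaling 6 higher and 2 lower, with a median of 0.11, against 1 higher and 7 lower, with a median of -0.19, without CTR2 and ONC4. Socs1 did not pass, and Tyk2 has no probe under that name. Socs3 differed by -0.24 (SE 0.20), Ptpn11 by 0.16 (SE 0.21) and Jak1 by 0.15 (SE 0.09), each with one sign on 4 of 4 arrays and none called. Under median scaling the sign of Socs3 (0.21) turned. Of the 6 proneurotrophin processing genes 3 passed, 2 higher and 1 lower, with a median of 0.06 (1 higher and 2 lower without CTR2 and ONC4, 3 higher under median scaling), and Mmp3, Mmp7 and Mmp9 did not pass. Furin, a protease that cleaves proneurotrophins, read 1.51, 0.97, 1.21 and 1.38 in CTR1 to CTR4, against 1.84, 1.66, 1.84 and 1.84 in ONC1 to ONC4. The labels did not overlap, with a difference of 0.53 (SE 0.12, limma adjusted p = 0.0787, and 0.0327 with the array as a replicate block).

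Of 9 genes known to be induced by neurotrophins 7 passed, 4 higher and 3 lower, with a median of 0.02 (3 higher and 4 lower under median scaling), and Egr2 and Nrn1 did not pass. Fos differed by -0.62 (SE 0.15, limma adjusted p = 0.0891, 0.0524 with the replicate block and 0.0151 with the array as a random effect), without overlap of the labels. Spry4, a feedback inhibitor of receptor kinases, differed by -0.31 (SE 0.09), called with the array as a random effect (limma adjusted p = 0.0222) but not with the replicate block or without it, and by -0.06 only under median scaling. Dusp6, a phosphatase of Erk kinases, differed by 0.25 (SE 0.15) and was not called. All 7 genes known to be induced by Stat3 were lower, with a median of -0.59 and a range from -1.15 to -0.14, except that under median scaling Socs3 was higher (6 of 7 lower, median -0.63). Only 3 of the 7 had the same sign on all arrays, where 39.4% of all genes did. Timp1, named here because the study lists it as higher after crush, went the opposite way, at -0.20 (SE 0.57). Junb, at -0.59 (SE 0.16), was called with the array as a replicate block (limma adjusted p = 0.0449) and not without it (0.113). Fgf2 differed by -0.92 (SE 0.56), with readings from -1.35 in CTR2 to 1.10 in CTR4 and from -2.0 in ONC2 to -0.46 in ONC4. Fgf2 is also a survival factor, and neither fit called it.

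**Figure D5:**
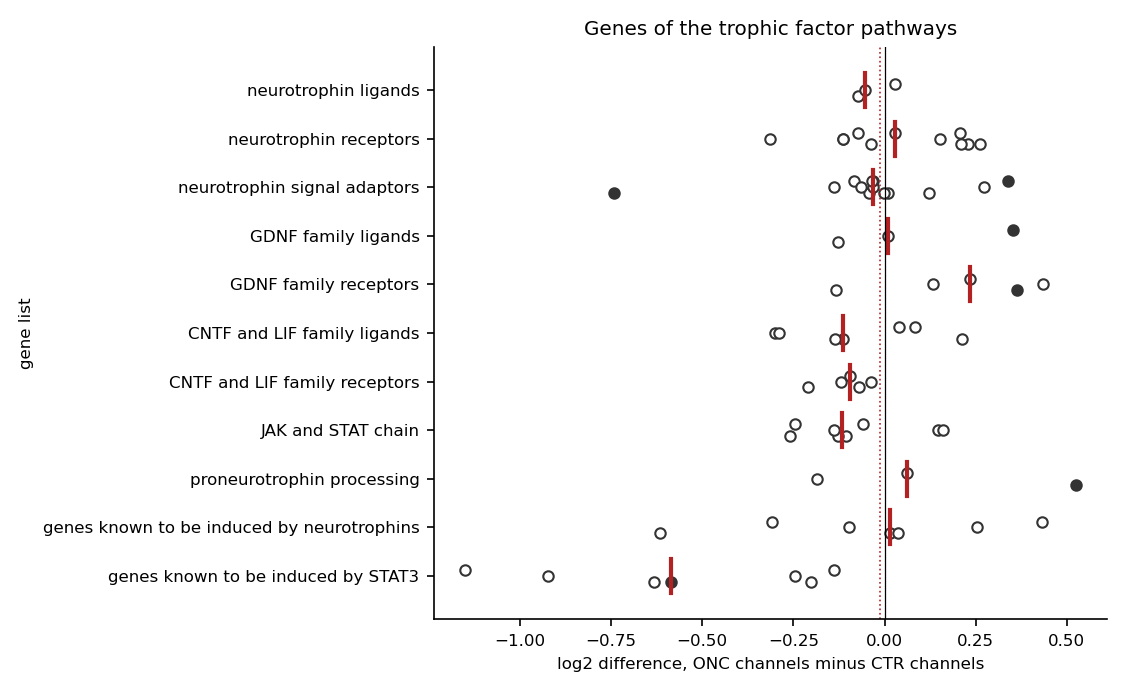
Log2 difference between the ONC and CTR channels for each gene of the 11 pathway lists that passed the spot filter. Circles are genes, filled where called with the array as a replicate block, red bars are the medians of the lists and the dotted line is the median of all genes. Filled circles are Sh2b1, Rapgef1, Pspn, Ret, Furin and Junb, and the genes known to be induced by Stat3 are all below 0, although Socs3 turns positive under median scaling.

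Markers of other retinal cells also varied between channels. The 7 genes of the Stat3 list stood at a median of -0.08, -0.30, 0.81 and 0.88 in CTR1 to CTR4, against -0.15, -1.39, -0.09 and 0.00 in ONC1 to ONC4, each relative to its own mean. The astrocyte list (2 of 3 markers passed, brightest S100b, Pax2 not passing) was at -0.07, -0.20, 0.85 and 0.92 in CTR1 to CTR4, against -0.19, -0.94, -0.12 and -0.24 in ONC1 to ONC4. CTR3 and CTR4 were high in both lists and ONC2 was low, and Gfap belongs to both. Gfap read from -1.84 to 0.17 in the CTR channels, against -3.26 to -1.57 in the ONC channels, a difference of -1.15 (SE 0.54, limma adjusted p = 0.296). The part of astrocyte content in the values of the Stat3 list was not tested.

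Microglial markers (7 of 7 passed, brightest C1qb) were at 0.05, -0.35, 0.46 and 0.59 in CTR1 to CTR4, against -0.33, -0.11, -0.38 and -0.09 in ONC1 to ONC4. CTR3 and CTR4 were again the highest, as for Ngfr, and whether this bears on Ngfr was not tested. C1qb differed by -0.69 (SE 0.48). Of the 7 microglial markers 6 were lower under the ONC label, and 1, Cx3cr1, was higher, by 0.39 (SE 0.14). Under median scaling 3 of these markers were higher and 4 lower, with a median of -0.43. Müller glia markers (5 of 6 passed, brightest Glul, Kcnj10 not passing) stayed between -0.27 and 0.38, with CTR4 highest, while Glul itself was 0.58 higher in the ONC channels (SE 0.26), and 0.29 higher when CTR4, its lowest channel, was left out. The summed level of the Müller list was 30.1 to 37.6 times the channel median for CTR, against 34.1 to 38.7 times for ONC.

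The differences of the marker lists between labels were as follows. Of the RGC list 9 of 9 genes had a positive difference, the median being 1.42, and in limma 0 were called, with or without the replicate block. Without CTR2 and ONC4 8 of the 9 were called, but these channels were set aside because of this list, so that count is no test of it. Slc17a6, the vesicular glutamate transporter of RGCs, was 1.79 higher (SE 1.11, limma adjusted p = 0.434), and 3.69 higher without CTR2 and ONC4 (limma adjusted p = 0.000575, under the same limit). The median difference was -0.23 for Müller glia, -0.75 for astrocytes, -0.41 for microglia, -0.23 for rods (5 of 5 passed) and 0.27 for bipolar cells (5 of 5 passed). It was 0.06 for amacrine cells (5 of 5), -0.05 for endothelium and pericytes (5 of 5), 0.53 for pigment epithelium (2 of 3), 0.04 for oligodendrocytes (3 of 4) and -0.44 for lens (4 of 4). The median of endothelium and pericytes turned to 0.02 under median scaling, and those of amacrine cells and oligodendrocytes each to -0.03 without CTR2 and ONC4. Under median scaling 19.6% of all genes were called. The median of oligodendrocytes was then 0.59, with 1 of 3 called, that of rods -0.63, with 3 of 5 called, and that of bipolar cells 0.42, with 2 of 5 called. These counts rest on few genes and are no result about the lists. The marker with the widest range over the channels was, from bipolar cells to lens in that order, Vsx1 (0.36, SE 0.32), Gad1 (-0.18, SE 0.21), Rgs5 (-0.19, SE 0.15), Rpe65 (0.79, SE 0.34), Mag (0.47, SE 0.20) and Cryba1 (-0.35, SE 0.45). With the array as a replicate block the marker genes called included Slc1a3 (-0.56, limma adjusted p = 0.0336) and Vim (-0.41, 0.0409) of Müller glia and Slc6a9 (-0.41, 0.0334) of amacrine cells. These 3 were named after their values were seen. The lens list stood at 1.24 in CTR2, above its 7 other channels, and the share of lens RNA in the values of CTR2 was not tested.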

How the data were processed

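Whole-retina RNA of 8 rats was hybridised to 4 Agilent arrays on 1 slide. The deposited files hold spot intensity values of both dyes, extracted by the authors with Agilent Feature Extraction, of which the headers name version 12.0.3.1 and the submitters' processing notes 11.1.19.1. Probe positions are those of rat build rn4 in the files. Of each file, 80 other columns of values were not used. The arrays, with 44254 spots of which 1377 are controls, limit the precision by their number.

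The median local background was subtracted from the mean foreground. Controls, spots with an outlier mark for the spot, its pixel population or its background, and spots under 2 times background in any channel were left out. The mark for the background was taken up after the data had been seen, because it gives the spot count of earlier results of these data (27587 spots without it). Loess normalisation within arrays, centring on the channel median, averaging of spots per probe and of probes per gene and limma 3.58.1 (R 4.3.3) followed, with two-sided tests and Benjamini-Hochberg adjustment over all genes, called at 0.05. Exact permutation tests over the channels were two-sided, and 0.0286 is the smallest p they can give. Python 3.11.15 made the tables and figures.

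The members and lists were chosen with earlier results of these data known. Pathway lists cover ligands, receptors, adaptors, proneurotrophin processing, the Jak and Stat chain and genes known to be induced by neurotrophins or Stat3, and marker lists cover 11 retinal and neighbouring cell types. Named were all members, pathway genes called in either fit, up to 2 per direction with the largest difference among those with the same sign on 4 arrays, the marker of each list with the widest range, and the 3 genes most like a member that spans at least 1 log2 unit.

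The labels place the retinas of the same number on 1 array. The deviations from the group means of the pair on an array correlated over genes at 0.149, 0.549, 0.401 and 0.487. Pairs from different arrays lay between -0.512 and 0.171, the highest being CTR1 with ONC2, which is above the pair on array 1. The array was taken as a replicate block in the paired fit. The retinas are separate by their labels, and p-values measure the spread between them. Alternatives were other normalisations, background corrections, filters, probe choices and tests, the array as a block, and channels left out. Exon and UTR annotation of rn4 was not used here.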

Additional observations from a re-analysis of the deposited data

Results flagged for a closer look

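In 10 of 92 groups of 4 channels, 1 channel stood apart from the other 3. Chance does so in about 1 in 20 groups, but many of these genes were named for their range or their difference, so that share is no measure for them. Among the neurotrophic genes these were Cntf in ONC4, at -0.011 where the other ONC channels read -0.46 to -0.44, and Ntrk3 probe A_64_P127858 in ONC4, at -1.42 where the others read -0.29 to -0.08. ONC4 was also the channel that stood apart for Slc17a6 (-1.40, the others 2.58 to 2.66) and Vsx1 (-0.78, the others -2.28 to -2.11).

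CTR2 stood apart for Slc17a6 (2.55, the other CTR channels -1.49 to -0.81) and Il11 (-2.89, the others -2.50 to -2.46). ONC2 stood apart for Furin (1.66, the others at 1.84), Dusp6 (-0.0056, the others 0.40 to 0.42), Fgf2 (-2.0, the others -0.64 to -0.46) and Gfap (-3.26, the others -1.69 to -1.57). What sets these channels apart was not tested.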

How the results depend on the processing

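Of 159 values of the 7 genes under the alternatives, 137 kept their direction and their side of the threshold, 3 passed it and 19 turned sign. For the other named genes 681 of 726 did, 36 passed the threshold and 9 turned. Cntf stayed between -0.53 and -0.19 and Ntrk2 between 0.04 and 0.43 under every alternative run. Signal over background limits Ntf3, Lif and Gdnf, and 4 channels per label limit all. Frs3, Osm, Cntfr and Socs3 had log2 intensities near those of Ntf3 and Lif, and their signal over background is not given here. The cause was not tested for any of the changes below.

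Median scaling without loess moved the median of all genes from -0.01 to 0.07, and 3194 genes were called in place of 81. Among them were 15 pathway genes in place of 0, including 3 of the 7 genes (Ntf3 0.66, Ntrk2 0.38, Lif 0.62). There Bdnf turned to 0.29, Il11 to 0.061, Cntfr to 0.28, Socs3 to 0.21 and Gad1 to 0.10. Loess with Aquantile called 412 genes (2 of the pathways), normexp 14, the processed signal 21 (Lif -0.069, Rapgef1 0.14, Spry4 -0.14, Cntfr -0.074), no filter with normexp 0, the well-above-background filter 123 and the brightest probe 124 (Ntrk3 -0.010, as for probe A_64_P035162 alone). The t-test of the methods on linear values, run without their cut-off on the fold change, called 0 genes after a Benjamini-Hochberg step, which the methods do not have, and 2682 before it (11 of the pathways).

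The array as a replicate block called 1254 genes, 502 higher and 752 lower, with 6 pathway genes, and as a random effect 2482 with 13. The block changed no call of the 7 genes. Without CTR2 and ONC4, 415 genes were called, 2 of the pathways, and Bdnf turned to 0.026, Lif to -0.10, Ptpn11 to -0.088 and Vsx1 to -0.13. With CTR2, CTR4, ONC1 and ONC3 only, 0 genes were called, Ngfr turned to 0.0062 and Il11 to 0.0084.

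Leaving out 1 retina at a time gave 0 to 38 genes called, the 38 without ONC2 and 0 without any other. The range was -0.15 to 0.032 for Bdnf (turned without CTR2), -0.022 to 0.12 for Ntf3, 0.078 to 0.20 for Ntrk2, -0.064 to 0.23 for Ntrk3, -0.34 to 0.042 for Ngfr (turned without CTR4), -0.048 to 0.16 for Lif and -0.63 to 0.0096 for Cryba1. Other named genes came nearer to 0, namely Sdc3 (0.26), Socs3 (-0.088), Fgf2 (-0.56), C1qb (-0.42), Glul (0.29), Rgs5 (-0.084) and Gad1 (-0.043) without CTR4, Gfap (-0.75) and Il11 (-0.15) without ONC2, Osm (0.088) and Vsx1 (0.013) without ONC4, Mag (0.26) and Dusp6 (0.17) without CTR1 and Rpe65 (0.51) without CTR3. In alternatives chosen after seeing the data, taking off the negative control level called 1 gene and turned Ntf3 to -0.24, and leaving out the mark for the background turned none of the 7. Gdnf, not well above background in any channel, had opposite signs in both alternatives that keep it and was called in neither.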
